A study of Mus musculus with 6 samples.

Results

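The genes described here encode the nuclear subunits of the mitochondrial respiratory chain and ATP synthase in mouse muscle satellite cells. They are the genes with a probe set of their own in the deposited value table whose symbol begins with Ndufa, Ndufb, Ndufc, Ndufs or Ndufv (complex I), is Sdha, Sdhb, Sdhc or Sdhd (complex II), begins with Uqcr (complex III), begins with Cox and a number from 4 to 8 (complex IV) or begins with Atp5 (complex V), together with Cyc1 and Cycs. The rule found 91 of 19938 genes. They comprise 34 subunits of complex I, 4 of complex II, 9 of complex III, 19 genes assigned to complex IV, 17 of complex V, 7 assembly factors of complex I and cytochrome c itself. Where a gene had several probe sets the one with the highest mean was kept. Genes of the rule without a probe set of their own were not analysed here.

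Complexes I and II pass electrons from NADH and succinate to ubiquinone, complex III passes them on to cytochrome c, and complex IV hands them to oxygen. Complexes I, III and IV pump protons across the inner mitochondrial membrane, and complex V, the ATP synthase, uses the return flow to make ATP. Most subunits are encoded in the nucleus, a few in mitochondrial DNA, and mature muscle carries heart and muscle isoforms of some complex IV subunits in place of the widely expressed ones. Resting satellite cells, the stem cells of muscle, are small and have few mitochondria.

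RNA was measured on 6 one-colour whole-transcript arrays, 3 of freshly sorted satellite cells and 3 of satellite cells kept in culture for 5 days. All cells came from hind-limb, abdominal and triceps muscle of resting C57BL/6J mice 2 months of age, and were sorted as positive for β1-integrin and CXCR4 and negative for CD45, CD31, CD11b, Ter119 and Sca1. Culture was on collagen and laminin in F10 medium with 20% horse serum and 5 ng/ml bFGF added each day. The series gives 3 mice; the labels do not tie arrays to animals and state no separate cultures, so the p-values below measure only the spread between these arrays, which may be technical.

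The values are RMA log2 intensities, and a fold change on this scale is compressed near background. The median over all genes lay between 3.25 and 3.36 on the 6 arrays, but the top of the scale was not equal. The 99th percentile, taken over all 35556 probe sets and not over genes, was 11.9 to 12.2 on the fresh arrays. It was 12.01 on cultured replicate 1, 9.43 on cultured replicate 2 and 9.96 on cultured replicate 3. The 91 genes are bright, with a mean over the 6 arrays of 2.21 to 11.17 and a median of 7.46, so results on them are given on the deposited scale and after 2 kinds of rescaling. As a background level, the value below which 95% of 1190 genes for smell and pheromone receptors lay was used (3.21 fresh, 3.32 cultured), and 87 of the 91 genes exceeded it in both groups. Of the satellite cell markers (Pax7, Myf5, Myod1, Itga7, Vcam1, Cdh15, Chrdl2), with a median of 6.70 to 7.45 on the fresh arrays, 4 of 7 were lower in culture. Of 9 markers of differentiating muscle cells, 5 were higher, and of 6 markers of fibro-adipogenic cells, 3 were lower (limma, adjusted p below 0.05). Of all genes, 3.37% were lower and 0.953% higher by the same test. These are bulk samples, so fewer cells of a type and less RNA per cell cannot be told apart.

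Culture moved few of the 91 genes past the test on the deposited scale. Ndufa6 and Ndufb11, both accessory subunits of complex I, passed as lower in cultured cells on this scale, and Cyc1, the cytochrome c1 of complex III, passed as higher. The other 88 did not pass (limma, Benjamini-Hochberg adjusted p below 0.05 over all 19938 genes). Over all genes, 3.37% were lower and 0.953% higher, so 2 lower and 1 higher of 91 were near the background. At an unadjusted limma p below 0.05, 8 of the 91 were lower and 5 higher, beside 9.06% and 8.58% of all genes. The median log2 fold change of the 91 genes was 0.03, beside 0.04 for all genes. By complex it was -0.10 for complex I, 0.72 for complex II, 0.06 for complex III, -0.09 for the 10 widely expressed subunits of complex IV and 0.03 for complex V.

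**Figure D1:**
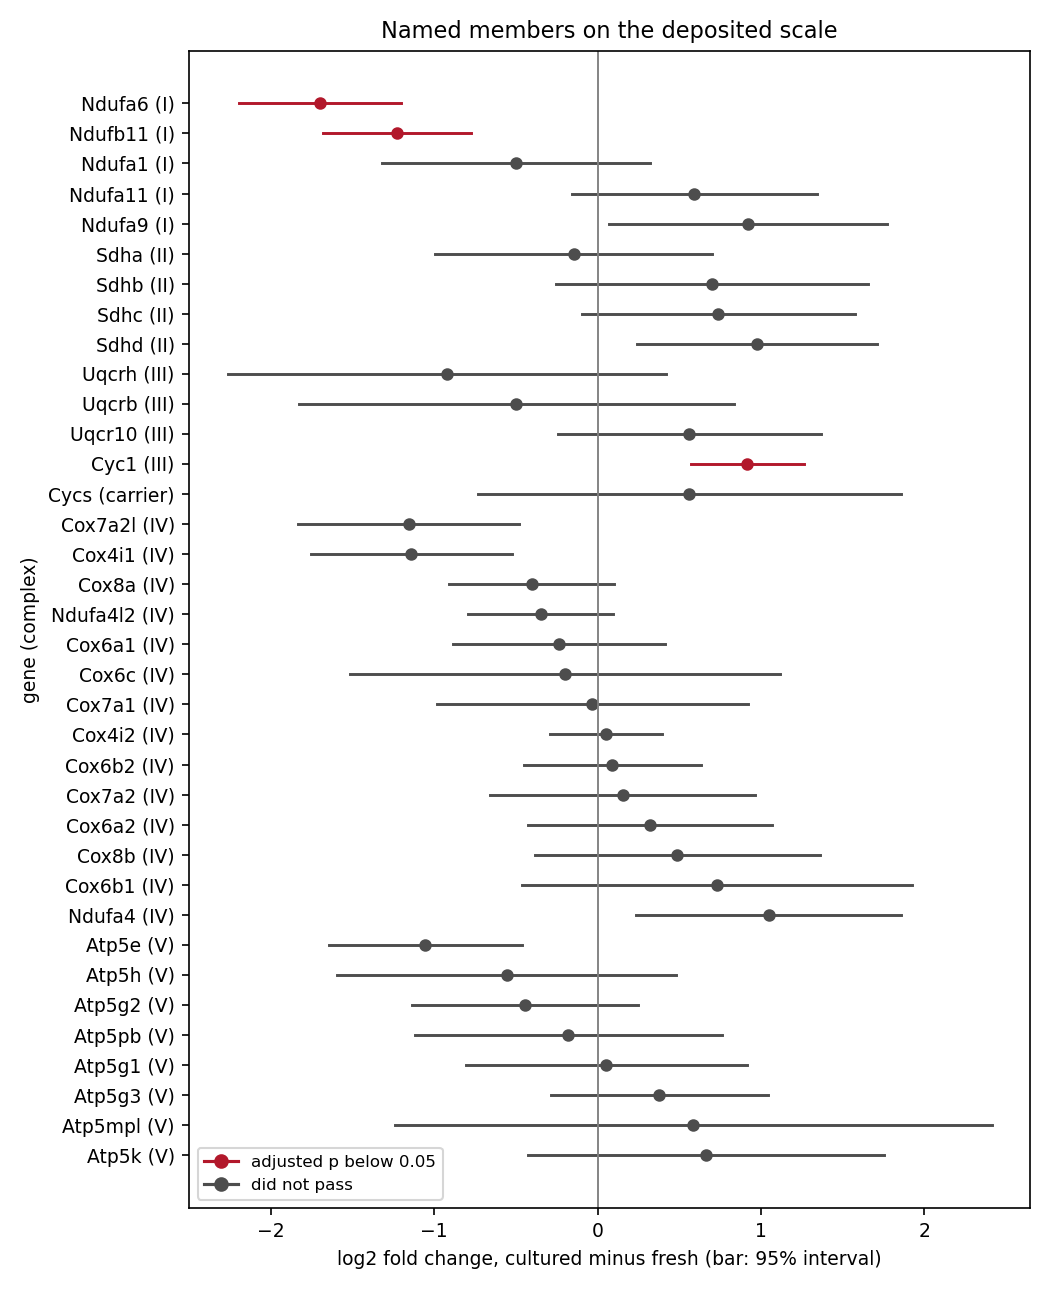
Log2 fold change of 36 members, cultured minus fresh on the deposited log2 scale (x axis), with the limma estimate as a point and its 95% interval as a bar, 3 arrays a group; genes are grouped by complex. Ndufa6, Ndufb11 and Cyc1 are marked as past the test, and the intervals of most of the others cross 0.

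The promoters of the genes lowered in complex I and of 3 others used below are shown to let them be compared: Sdhd stands for complex II, and Cox6a1 and Cox8b for the widely expressed and the muscle type of complex IV subunits. RefSeq (GRCm38.p6) gave a start for 74 of the 91 genes, and the 250 bases before it are printed 5′ to 3′ on the gene's strand. Capitals mark matches, on either strand, to the nuclear respiratory factor 1 motif that reads GCGC, any base, then TGCGC, the ETS-family motif CCGGAAG (that of GABP, nuclear respiratory factor 2) or the muscle E-box CAGCTG. Ndufa6 lies at chr15:82354292-82354541 on the minus strand, Ndufb11 at chrX:20617620-20617869 on the minus strand, Sdhd at chr9:50603850-50604099 on the minus strand, Cox6a1 at chr5:115348959-115349208 on the minus strand and Cox8b at chr7:140900447-140900696 on the minus strand.
Ndufa6: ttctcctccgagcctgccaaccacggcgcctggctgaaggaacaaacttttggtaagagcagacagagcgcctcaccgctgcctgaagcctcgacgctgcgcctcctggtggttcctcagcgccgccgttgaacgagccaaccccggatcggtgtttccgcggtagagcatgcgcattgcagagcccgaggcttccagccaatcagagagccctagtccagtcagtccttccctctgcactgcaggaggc
Ndufb11: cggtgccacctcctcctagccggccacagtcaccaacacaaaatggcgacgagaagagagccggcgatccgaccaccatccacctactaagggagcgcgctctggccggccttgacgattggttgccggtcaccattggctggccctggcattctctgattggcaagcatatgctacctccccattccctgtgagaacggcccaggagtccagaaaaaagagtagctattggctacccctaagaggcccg
Sdhd: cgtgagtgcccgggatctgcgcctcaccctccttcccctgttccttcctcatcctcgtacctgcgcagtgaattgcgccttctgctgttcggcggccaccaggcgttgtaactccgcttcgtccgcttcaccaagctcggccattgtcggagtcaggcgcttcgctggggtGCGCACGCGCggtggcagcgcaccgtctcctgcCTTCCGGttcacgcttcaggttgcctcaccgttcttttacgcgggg
Cox6a1: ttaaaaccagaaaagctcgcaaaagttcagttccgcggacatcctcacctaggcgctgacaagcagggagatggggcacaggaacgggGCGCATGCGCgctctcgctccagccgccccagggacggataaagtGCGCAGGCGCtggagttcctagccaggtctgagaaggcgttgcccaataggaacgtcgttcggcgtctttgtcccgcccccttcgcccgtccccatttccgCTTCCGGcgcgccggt
Cox8b: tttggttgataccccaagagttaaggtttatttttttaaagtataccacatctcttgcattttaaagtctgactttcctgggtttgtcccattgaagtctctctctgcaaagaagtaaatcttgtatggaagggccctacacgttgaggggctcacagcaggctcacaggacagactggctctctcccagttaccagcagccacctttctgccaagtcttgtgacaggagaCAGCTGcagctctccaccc
The Sdhd window held 1 nuclear respiratory factor 1 match, at -79 to -70 from the start, and 1 ETS match, at -46 to -40. The Cox6a1 window held 2 of the former, at -162 to -153 and -117 to -108, and 1 ETS match at -16 to -10. Cox8b held an E-box at -19 to -14, and the windows of Ndufa6 and Ndufb11 held none of these letters. No 2 matches overlapped in the windows shown. Among the 74 genes, 13 (17.6%) had a nuclear respiratory factor 1 match, beside 4.23% of 27025 genes with a promoter in the table. An ETS match stood in 13 (17.6%), beside 7.83%, and an E-box in 6 (8.11%), beside 14.7%. The nuclear respiratory factor 1 matches were in 5 of 31 complex I genes (Ndufa5, Ndufa8, Ndufa11, Ndufs5, Ndufs6), 2 of 3 complex II genes (Sdha, Sdhd), 0 of 5 complex III genes, 1 of 13 complex IV genes, 4 of 15 complex V genes (Atp5c1, Atp5g2, Atp5h, Atp5k) and the assembly factor Ndufaf4. A match describes letters in the window and is not a measured site.

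In complex I, the 6 core subunits that carry electrons (Ndufv1, Ndufv2, Ndufs1, Ndufs3, Ndufs7, Ndufs8) had log2 fold changes from -0.54 to 0.39, and none passed, also at an unadjusted limma p below 0.05. The 28 accessory subunits, which surround this core, ran from -1.70 to 0.92. Ndufa6, an accessory subunit with an LYR motif, read 9.19, 8.88 and 8.95 fresh and 7.68, 6.89 and 7.36 cultured. All 3 cultured arrays lay below all 3 fresh ones, by more than 1 unit, and the log2 fold change was -1.70 ± 0.21 (SE, n = 3 and 3; limma adjusted p = 0.00418), a 3.25-fold drop. Ndufb11, an accessory subunit of the membrane arm encoded on the X chromosome, read 8.93, 8.56 and 8.93 fresh and 7.93, 7.37 and 7.44 cultured. The groups did not overlap, and the log2 fold change was -1.23 ± 0.20 (limma adjusted p = 0.0121).

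The call on Ndufa6 held when each of the 6 arrays was left out in turn (limma adjusted p 0.000552 to 0.0272). That on Ndufb11 was lost without fresh replicate 1 (0.0502), without fresh replicate 3 (0.0683) and without cultured replicate 3 (0.0696). Ndufb2 and Ndufv3, accessory subunits, were also lower on every cultured array than on every fresh one, with log2 fold changes of -0.66 and -0.55, but did not pass (limma adjusted p = 0.133 and 0.156). Ndufa9, an accessory subunit that binds NADPH, was the highest in complex I. It read 4.91, 5.10 and 5.24 fresh and 6.94, 5.41 and 5.66 cultured. The groups did not overlap, but 1 cultured array stood more than 1 unit above the other two, and the log2 fold change of 0.92 ± 0.37 did not pass (limma adjusted p = 0.243). Ndufa11, an accessory membrane subunit, had 0.59 (0.404), and Ndufa1, the brightest complex I gene in fresh cells, -0.50 (0.533).

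The 7 complex I assembly factors, which build the complex but are not part of it, had log2 fold changes from -0.35 to 0.76, and none passed; Ndufaf5 did at an unadjusted limma p below 0.05. Ndufaf5 read 2.26, 2.35 and 2.39 fresh and 3.47, 2.99 and 2.82 cultured. It was higher on every cultured array (0.76, limma adjusted p = 0.0685), yet both group means lay below the background level set by the receptor genes.

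Complex II, succinate dehydrogenase, is the only complex with no subunit encoded in mitochondrial DNA and is also an enzyme of the citric acid cycle. Its iron-sulphur subunit Sdhb read 6.10, 6.76 and 5.97 fresh and 7.90, 6.22 and 6.81 cultured. The membrane anchors were Sdhc, at 6.84, 6.73 and 7.04 fresh and 8.43, 6.82 and 7.57 cultured, and Sdhd, at 5.79, 5.51 and 5.36 fresh and 7.30, 6.05 and 6.25 cultured. Only for Sdhd did the groups not overlap; in all 3, cultured replicate 1 was the highest array. The flavoprotein Sdha read 6.01, 6.28 and 6.09 fresh and 6.72, 5.10 and 6.12 cultured, with cultured arrays on both sides of the fresh ones. The log2 fold changes were 0.70 for Sdhb, 0.74 for Sdhc, 0.98 for Sdhd and -0.15 for Sdha, and none passed on the deposited scale (limma adjusted p = 0.440, 0.345, 0.156 and 0.881).

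In complex III, Cyc1 read 5.13, 4.86 and 5.10 fresh and 6.11, 5.93 and 5.80 cultured. The 3 cultured arrays lay close together and above all fresh ones, and the log2 fold change was 0.92 ± 0.15 (n = 3 and 3; limma adjusted p = 0.0135), a 1.89-fold rise. The call was lost without fresh replicate 2 (0.0635) or fresh replicate 3 (0.0546). The other core subunits, Uqcrc1, Uqcrc2 and the Rieske protein Uqcrfs1, had log2 fold changes of 0.06, -0.11 and 0.21. Of the 5 small subunits, Uqcrh, the hinge protein, was the lowest and the brightest in fresh cells. It read 11.10, 11.10 and 10.56 fresh and 11.48, 8.90 and 9.62 cultured. One cultured array was above all fresh arrays and the other two below them, and the log2 fold change was -0.92 ± 0.58 (limma adjusted p = 0.472). Uqcrb had -0.50 and Uqcr10 0.56, and neither passed (limma adjusted p = 0.723 and 0.463).

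Cycs, the mobile carrier cytochrome c, read 9.22, 9.07 and 9.10 fresh and 11.16, 8.63 and 9.28 cultured. The fresh arrays agreed to within 0.2 and the cultured ones did not. The log2 fold change was 0.56 ± 0.56 (limma adjusted p = 0.673). Its 3 probe sets did not share a direction: the lowest was -0.47, on a probe set other than the bright one kept. The dimmest of the 3 had a mean of 3.02 over all arrays, beside 9.41 for the kept one. A mean of 3.02 is below the background level set by the receptor genes. Of the 18 members with several probe sets, Atp5pb was the other gene whose probe sets differed in sign (-0.18 and 0.07).

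Among the widely expressed subunits of complex IV, Cox4i1, the common subunit 4 isoform, read 9.10, 8.85 and 9.05 fresh and 8.42, 7.31 and 7.86 cultured. All cultured arrays were below all fresh ones, but the log2 fold change of -1.14 ± 0.27 fell short of the threshold (limma adjusted p = 0.0593). Ndufa4, named after complex I but a subunit of complex IV, went the other way: 9.05, 8.46 and 8.96 fresh, 10.65, 9.20 and 9.75 cultured. It too did not overlap between groups and did not pass (1.05 ± 0.35, limma adjusted p = 0.168). Cox6b1, the widely expressed subunit 6B, had 0.73 (0.528), Cox6c, the brightest in fresh cells, -0.20 (0.896) and Cox8a -0.40 (0.401). Cox7a2l, a factor linked to supercomplexes of complexes III and IV, read 7.38, 7.11 and 7.27 fresh and 6.81, 5.66 and 5.81 cultured. The groups did not overlap, and the log2 fold change was -1.16 ± 0.29 (limma adjusted p = 0.0772).

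None of the tissue-restricted partners of these subunits passed. Cox4i2, an isoform known from lung, was at 3.98, 3.92 and 3.77 fresh and 4.15, 3.82 and 3.86 cultured (0.05, limma adjusted p = 0.895). Cox6b2, known from testis, had 0.09 and Ndufa4l2, a hypoxia-induced relative of Ndufa4, -0.35 (limma adjusted p = 0.883 and 0.405). Cox7b2 and Cox8c were below the receptor background in both groups.

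The heart and muscle isoforms Cox6a2, Cox7a1 and Cox8b were compared with the widely expressed isoforms of the same subunits. Cox6a2 read 5.70, 5.21 and 5.19 fresh and 5.44, 5.19 and 6.44 cultured. Cox7a1 read 4.94, 3.47 and 3.43 fresh and 4.17, 3.46 and 4.11 cultured, and Cox8b 3.79, 4.23 and 4.57 fresh and 4.15, 4.35 and 5.56 cultured. The groups overlapped for all 3 genes. Cultured replicate 3 had the highest value of all 6 arrays for Cox6a2 and Cox8b, and fresh replicate 1 for Cox7a1. Their log2 fold changes were 0.32, -0.03 and 0.49, and none passed (limma adjusted p = 0.674, 0.980 and 0.569).

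A difference taken within an array cancels a shift of that array common to both genes and shows unequal change only. Cox6a2 minus Cox6a1 was -3.73, -4.08 and -3.95 fresh and -4.27, -3.36 and -2.46 cultured, a shift of 0.56 (exact permutation test, two-sided, p = 0.4, adjusted over the 3 pairs 0.6). Cox7a1 minus Cox7a2 shifted by -0.19 (exact p = 0.8, adjusted 0.8), and Cox8b minus Cox8a by 0.89 (exact p = 0.3, adjusted 0.6). In all 3 pairs cultured replicate 3 gave the highest cultured difference and cultured replicate 1 the lowest. With 3 arrays against 3 the smallest p this test can give is 0.1, so it cannot pass at 0.05. These shifts depended on the scale: after quantile normalization and after loess they were -0.055 and -0.40 for Cox6a2, -1.12 and -1.32 for Cox7a1, and 0.070 and -0.23 for Cox8b, each against its partner. The differentiating muscle markers had a median of 5.89, 6.03 and 7.57 on cultured replicates 1, 2 and 3, beside 4.03 to 4.21 on the fresh arrays. Of 12 myofibre markers 1, Ckm, was lower in culture and 0 were higher, beside 3.37% and 0.953% of all genes. The list's median was 4.56, 4.93 and 4.73 fresh and 4.09, 4.18 and 4.77 cultured. Of 8 brown adipocyte markers, which would accompany Cox7a1 and Cox8b in that cell type, 7 were below background in both groups. The part of these cell types in the isoforms' values was not tested.

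**Figure D2:**
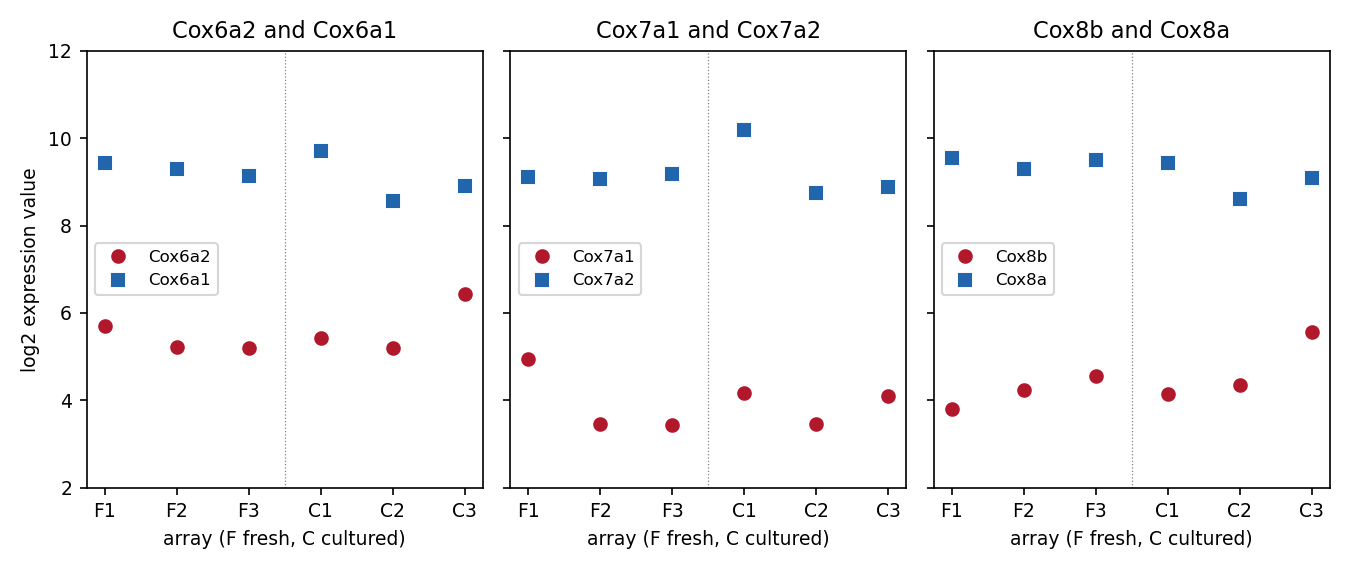
Log2 value (y axis) of each muscle isoform (red circles) and its widely expressed partner (blue squares) on the 3 fresh (F1 to F3) and 3 cultured (C1 to C3) arrays; each point is 1 array. Cox6a2 and Cox8b are highest on C3, at 6.44 and 5.56, and in no panel do the red points of the groups separate; levels of different probe sets are not comparable.

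In complex V, the catalytic head and central stalk (Atp5a1, Atp5b, Atp5c1, Atp5d, Atp5e) had log2 fold changes from -1.05 to 0.30. Atp5e, the epsilon subunit of the stalk, read 8.77, 8.25 and 8.72 fresh and 8.05, 7.31 and 7.22 cultured. The groups did not overlap, and the log2 fold change was -1.05 ± 0.25 (limma adjusted p = 0.0664). The 3 genes for the same ring subunit c, Atp5g1, Atp5g2 and Atp5g3, had 0.05, -0.44 and 0.38 (limma adjusted p = 0.961, 0.505 and 0.559). At an unadjusted limma p below 0.05, Atp5e was the only complex V gene. The 4 peripheral stalk genes ran from -0.56 (Atp5h) to 0.38 (Atp5o).

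The small membrane subunits of complex V spread widely over the cultured arrays. Atp5mpl, the brightest of complex V, read 10.97, 10.71 and 10.96 fresh and 13.62, 10.25 and 10.53 cultured. The fresh arrays stayed within 0.3 of each other, while cultured replicate 1 stood far above them and the other two below them. Its log2 fold change was 0.59 ± 0.79, and that of Atp5k, subunit e, was 0.67 ± 0.47 (limma adjusted p = 0.766 and 0.530).

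The same split between cultured arrays ran through all complexes. Set against each gene's fresh mean, 78 of the 91 genes were higher on cultured replicate 1, 14 on cultured replicate 2 and 36 on cultured replicate 3. The median deviation was 0.60, -0.54 and -0.07 on the 3 arrays, and it was 0.05, 0.00 and 0.03 for all genes. For complex I it was 0.55, -0.57 and -0.32, for complex III 0.66, -0.40 and -0.11, for complex IV 0.74, -0.62 and -0.14, and for complex V 0.95, -0.79 and -0.17. On cultured replicate 2, 0 of 17 complex V genes were above their fresh mean, and 16 of 17 were on cultured replicate 1.

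Complex II stood above the other complexes on each cultured array, at 1.59, -0.05 and 0.61. Against the median of all 91 genes on the same array this was 1.00, 0.49 and 0.68 higher. Sdhb, Sdhc and Sdhd, but not Sdha, were above that median on all 3 cultured arrays. In all, 19 of 91 genes were above it on all 3, among them Ndufa9, Ndufa11, Cyc1, Uqcrfs1, Uqcr10, Cycs, Cox6b1, Ndufa4, Atp5g3 and Atp5k. A further 21 were below it on all 3, among them Ndufa6, Ndufb11, Ndufb2, Ndufv3, Uqcrh, Cox4i1, Cox8a, Cox7a2l, Atp5e and Atp5g2. With 4 genes in complex II these are descriptions, and no difference between complexes was tested.

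**Figure D3:**
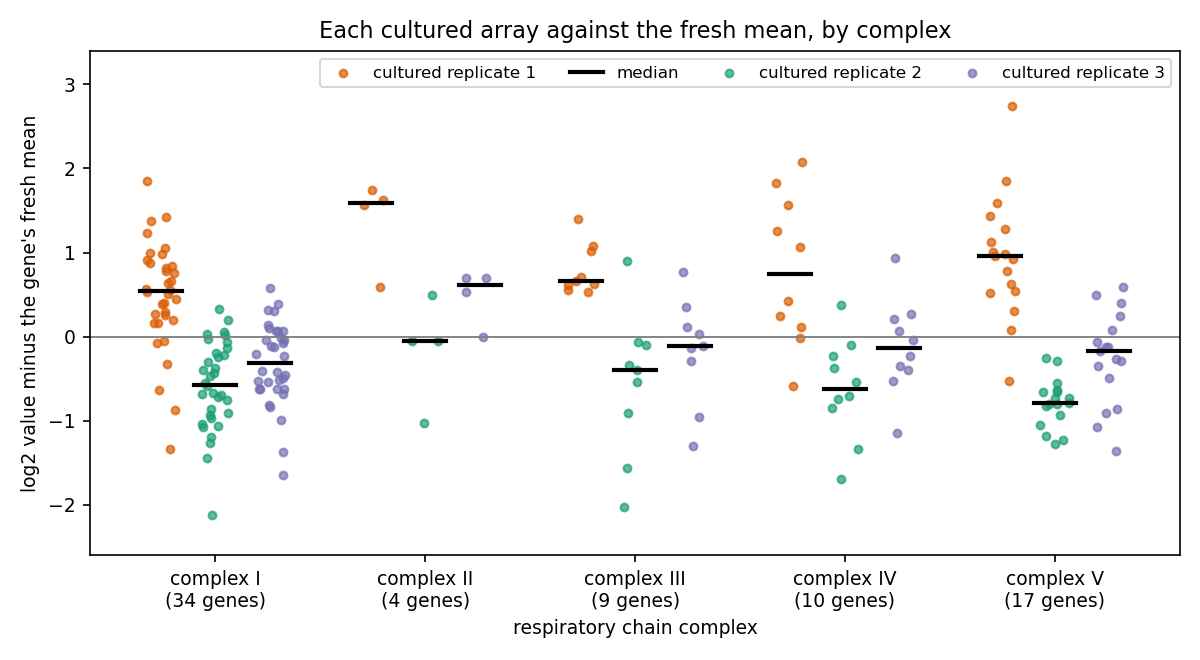
Log2 value of each member minus its mean over the 3 fresh arrays (y axis), for the 5 complexes (x axis), with 1 point a gene and 1 colour for each cultured array; black bars are medians, and complex IV holds its 10 widely expressed subunits. Cultured replicate 1 has the highest median and cultured replicate 2 the lowest in all 5 complexes, and complex II has the highest median on each array.

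Other bright genes moved further down than these on cultured replicates 2 and 3. Among genes with a mean between 7 and 8, the median deviation of 227 other genes was -0.07, -1.47 and -0.99 on cultured replicates 1, 2 and 3, and that of 17 members was 0.56, -0.33 and 0.06. Between 8 and 9, 89 other genes had 0.00, -1.60 and -1.13, and 16 members 0.77, -0.87 and -0.37. Cytosolic ribosomal protein genes are among the bright ones, with a median log2 fold change of -1.91. Of 62, 10 passed as lower and 0 as higher, beside 3.37% and 0.953% of all genes. After quantile normalization and loess that median was -0.42 and -0.32. In the same order 15 and 12 were lower, beside 4.64% and 5.19% of all genes, and 2 and 3 higher, beside 2.94% and 2.29%.

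**Figure D4:**
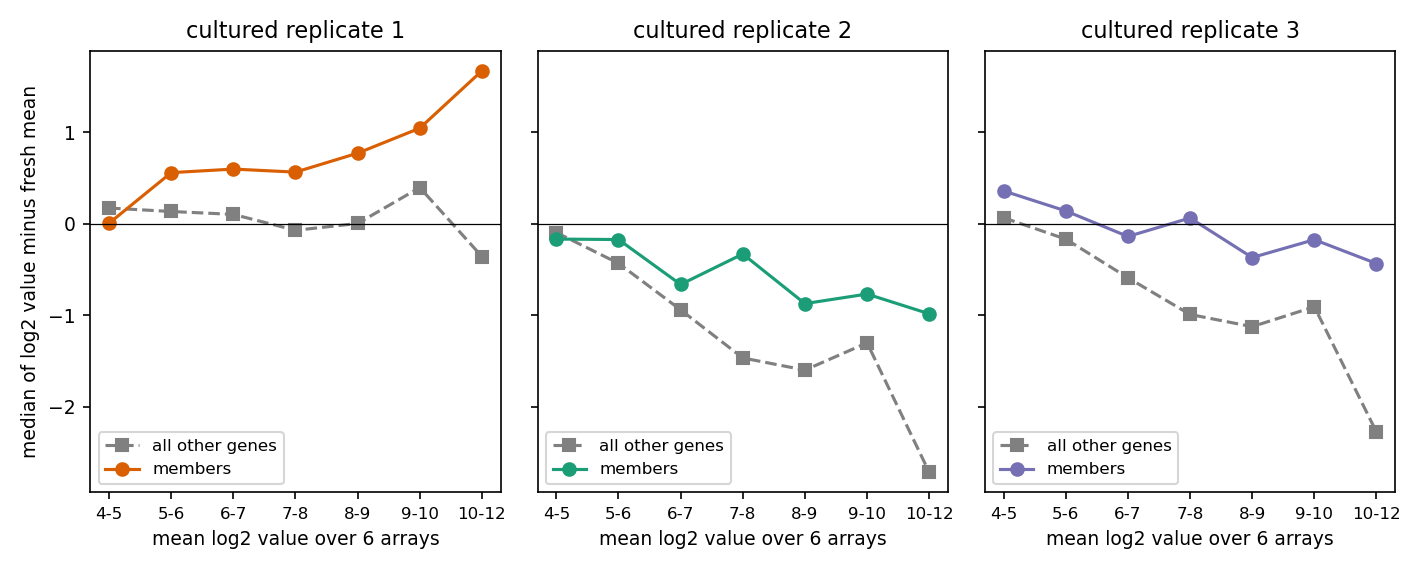
Median of log2 value minus fresh mean (y axis) by mean log2 value over the 6 arrays (x axis), for members (coloured circles) and all other genes (grey squares), 1 panel for each cultured array. The members lie above the other genes in every band from 5 upwards on all 3 arrays, and on cultured replicates 2 and 3 the other genes lie furthest below 0 in the brightest band; the bands hold 4 to 19 members.

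Ranks within an array do not depend on its scale, and on ranks the median of the 91 genes was higher in culture. The median percentile among all genes was 97.7, 97.3 and 97.1 in fresh cells and 98.3, 98.6 and 98.5 in cultured cells, with no overlap between groups. For complex II it was 94.4, 95.4 and 93.9 fresh and 97.9, 97.3 and 97.4 cultured. Of the 91 genes, 52 had higher ranks on every cultured array than on every fresh one and 2 had lower ones, Ndufa6 and Cox7a2l. Over all genes these shares were 13.4% and 11.5%. The genes that ranked higher were 21 of 34 in complex I, 3 of 4 in complex II, 5 of 9 in complex III, 6 of 19 in complex IV (all 6 among its 10 widely expressed subunits) and 14 of 17 in complex V. On the log2 values themselves 5 did not overlap as higher and 7 as lower, beside 12.9% and 10.3% of all genes.

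Rescaling the arrays moved the test in the same direction. Quantile normalization sets each value by its rank within the array, so its result is not separate from the ranks above. After quantile normalization, which gives all arrays 1 distribution, 30 of the 91 genes were higher in culture and 2 lower (limma, adjusted p below 0.05), beside 2.94% and 4.64% of all genes. After cyclic loess, which removes trends with brightness between arrays, 30 were higher and 2 lower, beside 2.29% and 5.19%. Under both, 24 were higher and the same 2, Ndufa6 and Cox7a2l, were lower. The 24 were 5 of complex I, 2 of complex II, 2 of complex III, 5 of complex IV, 9 of complex V and Cycs. Ndufaf5, below background in both groups, was among the 30 after quantile normalization and not among those after loess. The median log2 fold change became 0.57 and 0.51 for the 91 genes, beside 0.04 and 0.01 for all genes. By complex, in the same order, it was 0.49 and 0.43 for complex I, 1.21 and 1.07 for complex II, 0.59 and 0.57 for complex III, 1.02 and 1.16 for complex IV, and 0.74 and 0.97 for complex V.

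Cox6b1, Atp5mpl and Ndufa4 had the largest increases under both rescalings. Cox6b1 had a log2 fold change of 2.31 after quantile normalization (limma adjusted p = 0.000306) and 2.23 after cyclic loess. Atp5mpl had 2.13 and 2.22 and Ndufa4 2.04 and 2.16, and these 3 passed under both, as did Cycs with 1.41 and 1.70. Sdhc and Sdhd passed under both (1.28 and 1.31 after quantile normalization), while Sdhb passed after quantile normalization only (limma adjusted p = 0.0183, and 0.0539 after loess). Cyc1 passed on the deposited scale and under both. Ndufb11 passed on the deposited scale and under neither of these: its change was -0.54 after quantile normalization (limma adjusted p = 0.133) and -0.51 after loess (0.246), and its ranks overlapped between groups. Ndufa6 was lower on these 3 scales (-1.03 after quantile normalization, limma adjusted p = 0.00526, and -0.997 after loess, 0.0181). With each array centred on the cytosolic ribosomal protein genes, which moved the median of all genes to 1.84, Ndufa6 and Ndufb11 turned to 0.10 and 0.57 (limma adjusted p = 0.890 and 0.413), both below that median. None of the 6 core subunits of complex I passed after quantile normalization or loess, and none of the 3 muscle isoforms did. After quantile normalization and loess, Cox4i1 had -0.46 and -0.33 (limma adjusted p = 0.115 and 0.362). Atp5e had -0.38 and -0.39 (limma adjusted p = 0.323 and 0.343), and the ranks of both genes overlapped between groups.

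**Figure D5:**
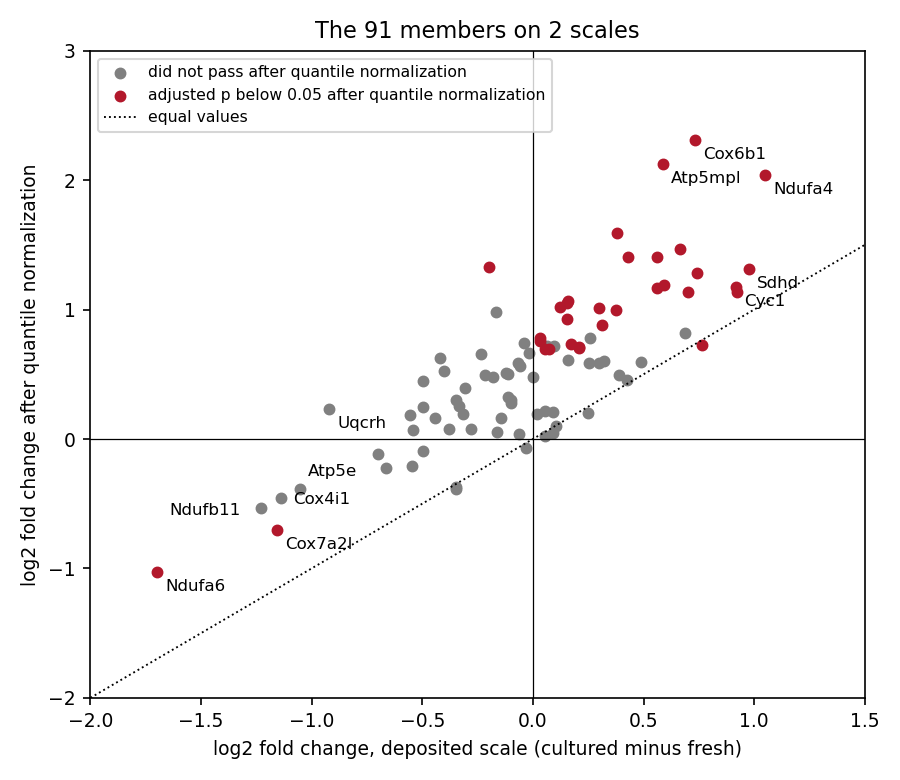
Log2 fold change of the 91 members after quantile normalization (y axis) against that on the deposited scale (x axis), cultured minus fresh; each point is 1 gene, red where the adjusted p is below 0.05 after quantile normalization. Most points lie above the dotted line of equal values, and Ndufa6 and Cox7a2l are the red points below 0.

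Cultured replicate 1 was the array on which the genes stood highest, so a lower median on the deposited scale without it follows from the choice of array. Without that array 14 of the 91 genes were lower and 1, Cyc1, was higher, beside 6.41% and 1.2% of all genes. The median log2 fold change was -0.34. Most genes of the array are dimmer than these, and on the cultured arrays left other bright genes lay further below their fresh means. The share of all genes is therefore no measure of a fall particular to the members. The 14 were 6 accessory subunits of complex I (Ndufa1, Ndufa6, Ndufa7, Ndufb9, Ndufb11, Ndufc1), Uqcrb and Uqcrh of complex III, Cox4i1 and Cox7a2l of complex IV, and Atp5e, Atp5g2, Atp5h and Atp5l of complex V. No complex II gene was among them, and the complex II median was 0.28.

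Genes that serve the same machinery were measured beside these. Of 42 assembly factors of complexes I to V (the 7 above among them), 0 passed in either direction, with a median log2 fold change of 0.25; 1 was lower and 10 were higher at an unadjusted limma p below 0.05, for which the shares of all genes are the 9.06% and 8.58% given above. Those that moved furthest were Tmem70, an assembly factor of complex V, at 1.35 and Tmem126b and Cox20, factors for complexes I and IV, at 1.26 and -0.87 (limma adjusted p = 0.184, 0.110 and 0.299). Of 77 mitochondrial ribosomal protein genes, which translate the subunits encoded in mitochondrial DNA, 2 fell (Mrpl52, -1.62, and Mrps28, -1.02) and 3 rose (Mrps22, 1.09, Mrps11, 0.93, and Mrpl43, 0.76), with a median of 0.24. After quantile normalization 2 were lower and 13 higher (median 0.44), and after loess 3 and 8 (median 0.32); the shares of all genes were those given for each scale above. Of 24 import genes 0 passed, with a median of 0.15. At an unadjusted limma p below 0.05, 2 were lower and 5 higher, beside 9.06% and 8.58% of all genes.

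The arrays held 2 subunits encoded in mitochondrial DNA, COX2 and ND3. COX2, the copper-binding subunit of complex IV, read 14.67, 14.70 and 14.70 fresh and 14.81, 11.72 and 13.73 cultured. It was level with the fresh arrays on cultured replicate 1 and lower on the other two, and ND3 of complex I followed the same order, at 13.39, 10.33 and 11.56 on the cultured arrays. Neither passed (-1.27 and -1.47, limma adjusted p = 0.379 and 0.297). The direction turned with the scale: the median of the pair was -1.37 as deposited, 0.39 after quantile normalization and 0.87 after loess, with 0 past the test on each. Of 15 citric acid cycle genes 0 passed, with a median of 0.30. At an unadjusted limma p below 0.05, 1 was lower and 3 higher, beside 9.06% and 8.58% of all genes. Idh3a, a subunit of the NAD-dependent isocitrate dehydrogenase, had 1.15 and Suclg1, of succinyl-CoA ligase, 1.15, both higher on every cultured array. Pdhb, of pyruvate dehydrogenase, had -0.81.

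Of 15 regulators of mitochondrial biogenesis 0 passed, with a median of -0.17. At an unadjusted limma p below 0.05, 2 were lower and 0 higher, beside 9.06% and 8.58% of all genes. The 3 furthest from 0 were all lower. Gabpb1, the beta subunit of GABP, was at -0.80 (limma adjusted p = 0.0581). Tfam, which binds and packages mitochondrial DNA, was at -0.77 (limma adjusted p = 0.146). Tfb2m, a transcription factor of mitochondrial DNA, was at -0.75 (limma adjusted p = 0.341). Ppargc1a, the coactivator PGC-1α, was below background in both groups. Of 5 uncoupling and nucleotide carriers 0 passed, also at an unadjusted limma p below 0.05, with a median of -0.02, which was 0.07 after quantile normalization and 0.20 after loess.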

How the data were processed

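Total RNA of 3 fresh and 3 cultured samples was hybridised to Affymetrix whole-transcript arrays after biotin labelling, per the labels' protocols. The authors deposited log2 values for 35556 probe sets, made with RMA in the package oligo, per the submitters' processing notes; the sources used here do not give versions, options or a genome build. Scanner files were not used. Gene names came from the platform annotation in GEO: 21789 probe sets had 1 gene symbol, 1621 several and 12146 none. Probe sets with several symbols were left out (6 of them shared by a member), and the probe set with the highest mean was kept per gene, which left 19938 genes. Whether probes also detect pseudogene copies of the small subunits was not tested.

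From these values, limma 3.58.1 (lmFit and eBayes, R 4.3.3) was fitted over all genes with group as the only term and no filter, with Benjamini-Hochberg adjustment and a threshold of 0.05. Intervals are 95%. Isoform pairs were compared with exact permutation tests over samples (SciPy 1.17.1). The fit was tested on simulated data. The number of arrays limits the precision. Ndufa4 was counted in complex IV, and the complex IV medians use its 10 widely expressed subunits.

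Genes described are all members past the test, the muscle and other isoform pairs, and members whose probe sets differ in sign or by over 1. In each complex the 2 highest and 2 lowest log2 fold changes and the brightest in fresh cells are also described. The 3 largest changes are given for the assembly factors, citric acid cycle genes and biogenesis regulators. Of the mitochondrial ribosomal protein genes those past the test on the deposited scale are named. Others are named where groups did not overlap or where a count is small, and were chosen after their values were seen. The members and lists were chosen with earlier results of these data known. Promoter sequences are from RefSeq, GRCm38.p6, and 17 members had no entry. Alternatives tried were other scalings, filters, probe set rules, spread estimates, a replicate block and leaving out each array.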

Additional observations from a re-analysis of the deposited data

How the results depend on the processing

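The results depend on the array scale and on cultured replicate 1. Members centring, percentile ranks and the placements of Ndufa4 and of all 19 complex IV genes were chosen after seeing the data. The count of lower members was 2 as reported, 4 without dim genes (mean up to 4), 0 with ribosomal protein centring, 1 with a trended and robust prior (Ndufa6) and 5 with array weights. The count of higher members was 1 as reported, 30 after quantile normalization and after cyclic loess, 76 with ribosomal protein centring and 0 with members centring. Of all genes, 861 passed in either direction as reported, 17833 of 19938 with ribosomal protein centring and 829 with members centring. That number was 1511 after quantile normalization, 1492 after cyclic loess, 775 without dim genes, 901 with the trended prior and 1742 with array weights. Leaving out 1 array each gave 1 to 14 lower and 0 to 1 higher, beside 448 to 1517 of all genes in either direction.

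The median log2 fold change of all members was 0.57 (quantile), 0.51 (loess) and 1.83 (ribosomal protein centring, which shifts the median of all genes to 1.84); of complex I 0.49, 0.43 and 1.70; of complex III 0.59, 0.57 and 1.85; of complex IV 1.02, 1.16 and 1.70; of complex V 0.74, 0.97 and 1.83. That of complex II moved past the replicate spread only with ribosomal protein centring, to 2.52. Leaving out arrays gave -0.34 to 0.26 for all members, -0.47 to 0.12 for complex I, 0.28 to 1.11 for complex II, -0.22 to 0.28 for complex III, -0.34 to 0.24 for complex IV and -0.49 to 0.44 for complex V.

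Cox6a2 minus Cox6a1 became -0.40 after loess, Cox7a1 minus Cox7a2 -1.12 (quantile) and -1.32 (loess), and Cox8b minus Cox8a 0.070 and -0.23; leaving out arrays gave 0.11 to 1.01, -0.48 to 0.32 and 0.48 to 1.36. With ribosomal protein centring Ndufa6, Ndufb11 and Mrpl52 turned from lower to 0.10, 0.57 and 0.18 (limma adjusted p = 0.890, 0.413 and 0.800). That centring adds the same amount to the log2 fold change of every gene, so Mrps28 turned as well. Ndufb11 (0.144) and Cyc1 (0.0594) lost their calls with the trended prior, Cyc1 (0.171) with members centring; the causes were not tested.

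A replicate block gave 3 lower members (Ndufa6, Ndufb11 and Cox4i1) and 1 higher, beside 662 of all genes in either direction. Same-numbered arrays correlated at -0.09, -0.14 and 0.03 in their deviations, which gives no sign of pairing; whether same-numbered arrays share an animal is not known. The mean of probe sets and a test against a 1.2-fold change kept 2 lower and 1 higher, beside 871 and 557 of all genes in either direction.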
